A study of Mus musculus with 8 samples.

Results

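The collagen genes of the mouse liver are described here, taken as every row of the deposited table whose gene symbol consists of Col, a number, the letter a and a second number. The rule found 44 genes among 55385 gene identifiers, which were grouped as 11 fibrillar, 8 basement membrane and 25 other collagens. RNA-seq had been performed on whole livers of male mice, 5 weeks old and fasted for 16 h, with 4 *Usp39*-HKO mice and 4 control littermates. *Usp39*-HKO mice were made from *Usp39* fl/fl mice, in which loxP sites flank exon 2 of *Usp39*, a gene of the spliceosome, by crossing to *Alb-Cre* mice of the C57BL/6J strain. The albumin promoter drives Cre in hepatocytes, while RNA of the other liver cells is also part of every library. Whether each of the other cell types kept *Usp39* was not measured here. The labels give the controls as WT, and whether the controls carried floxed alleles or Cre is not given in the sources used here. Each library came from 1 mouse.

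Collagens are secreted proteins that wind into triple helices and form much of the extracellular matrix. Fibrillar collagens of types I, III and V assemble into the fibers of portal tracts and scars, and in the liver they are made mainly by stellate cells and portal fibroblasts. Type IV collagen forms the network of basement membranes, to which types XV and XVIII are attached, and type XVIII, the precursor of endostatin, is known to be made by hepatocytes. The remaining types include the microfibrils of type VI and collagens that sit on fibrils or in cell membranes.

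Counts per liver summed to between 8589636 and 10418450, so that 3 counts, the limit that a count of 0 allows, equaled 0.288 to 0.349 CPM (counts scaled to library depth). *Usp39* itself was measured at 9.36, 10.4, 8.76 and 9.78 FPKM (fragments per kilobase of exon, scaled to the depth of the library) in control livers A468, A472, A473 and A475. The *Usp39*-HKO livers A469, A470, A471 and A474 held 8.38, 8.63, 8.70 and 8.07 FPKM. The groups did not overlap, and *Usp39* fell by 0.41 log2 units (standard error, SE, 0.11, edgeR adjusted p = 0.0212). The call was lost without control liver A475 (adjusted p = 0.0547) or *Usp39*-HKO liver A474 (adjusted p = 0.0615), and with library totals in place of the trimmed mean of M-values (TMM) scaling (−0.18, adjusted p = 0.247). The *Usp39* count covers all 13 exons (2445 bases), not only the exon between the loxP sites. Reads from the remaining exons are counted too, so the fold change of *Usp39* does not measure the deletion. The paper determined knockout efficiency by immunoblotting of liver and primary hepatocytes, and also measured *Usp39* in livers of both genotypes by qPCR. Control liver A475 stood apart by its pancreatic RNA, with a summed level of 574 FPKM for 8 acinar markers against 2.92 to 5.03 FPKM in the other 7 livers. TMM scaling set the median log2 fold change of all tested genes at −0.0015, whereas library totals alone set it at 0.24. FPKM values carry no TMM scaling, so a ratio of FPKM means reads higher than the fitted fold change of the same gene. The TMM factors were 0.911 to 0.940 in the controls and 1.01 to 1.19 in the *Usp39*-HKO livers. Statements on overlap between groups refer to FPKM, and a narrow gap with the *Usp39*-HKO livers above can close under TMM.

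A gene was tested where its FPKM reached 0.5 in at least 4 of the 8 livers, which 18 of the 44 collagen genes did, 7 fibrillar, 5 basement membrane and 6 other. Of these 18, 10 rose in the *Usp39*-HKO group (adjusted p under 0.05, edgeR quasi-likelihood test, Benjamini-Hochberg over 14340 genes), against 10.9% of all tested genes called higher. Another 4 were lower, against 11.6% of all tested genes, so that 14 of 18 changed in either direction, against 22.5%. The median log2 fold change was 0.64 over the 18 genes and −0.0015 over all tested genes. The risen genes were *Col1a1*, *Col1a2*, *Col3a1*, *Col5a1*, *Col5a2*, *Col4a1*, *Col4a2*, *Col6a1*, *Col6a3* and *Col16a1*, and the fallen genes were *Col5a3*, *Col27a1*, *Col15a1* and *Col18a1*. *Col4a5*, *Col6a2*, *Col13a1* and *Col14a1* did not pass the threshold. With library totals in place of TMM, 14 were higher and 3 lower, against 3525 and 696 of all 14340 genes. *Col27a1* no longer passed there (edgeR adjusted p = 0.159). Limma on log2(FPKM + 1) called 12 higher and 3 lower, against 3031 and 637 of all genes. Without control liver A475, 8 were higher and 3 lower, against 1020 and 1023 of all genes. The main fit had called 1561 of all genes higher and 1664 lower. On FPKM, 9 of the 18 genes lay above all controls in all 4 *Usp39*-HKO livers, against 23.9% of tested genes, and 3 lay below, against 4.81%. All 18 genes passed the filter on low values in at least 3 control livers, 1 of them (*Col16a1*) in exactly 3.

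**Figure D1:**
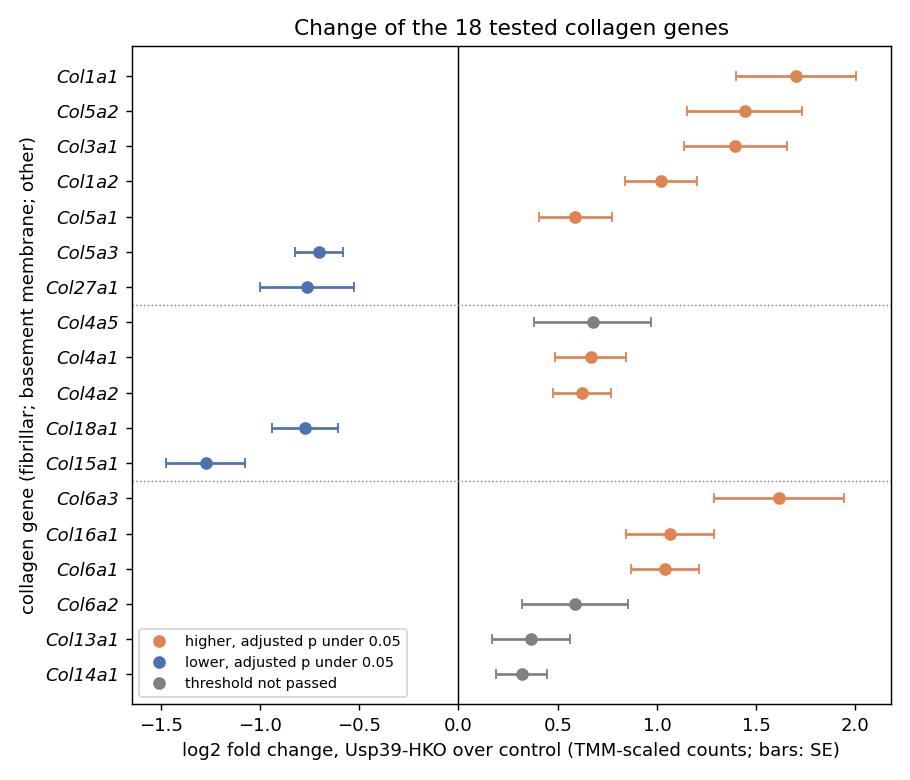
Log2 fold changes of the 18 tested collagen genes (x axis, *Usp39*-HKO over control livers, TMM-scaled counts), with standard errors as bars and genes listed on the y axis by fibrillar, basement membrane and other type. Of the genes past the threshold 10 lie right of 0 and 4 left of it, between −1.27 for *Col15a1* and 1.70 for *Col1a1*.

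Sequence upstream of the start site is shown for genes that moved in opposite directions, *Col3a1*, *Col5a1* and *Col6a3* among the risen and *Col5a3*, *Col15a1* and *Col27a1* among the fallen, taken as those whose 150 bases before the RefSeq start hold no annotated exon. The bases are from RefSeq on GRCm38.p6, written 5′ to 3′ on the strand of the gene. Capitals mark a TATA box (letters TATAAA), a box of the letters CCAAT, a GC box (letters GGGCGG) and a SMAD-type element (letters CAGAC), or their reverse complements, with a match cut at the start site marked as far as it runs.
Col3a1 (chr1:45311388-45311537, plus strand): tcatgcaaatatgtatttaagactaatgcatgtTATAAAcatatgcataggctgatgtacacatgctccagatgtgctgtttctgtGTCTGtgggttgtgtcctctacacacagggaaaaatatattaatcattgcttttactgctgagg
Col5a1 (chr2:27886275-27886424, plus strand): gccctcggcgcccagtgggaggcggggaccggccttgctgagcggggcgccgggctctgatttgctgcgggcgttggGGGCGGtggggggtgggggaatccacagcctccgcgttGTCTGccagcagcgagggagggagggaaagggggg
Col6a3 (chr1:90843972-90844121, minus strand): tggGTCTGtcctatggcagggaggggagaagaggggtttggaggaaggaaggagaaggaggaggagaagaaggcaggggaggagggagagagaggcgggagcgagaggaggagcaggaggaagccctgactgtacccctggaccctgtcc
Col5a3 (chr9:20815068-20815217, minus strand): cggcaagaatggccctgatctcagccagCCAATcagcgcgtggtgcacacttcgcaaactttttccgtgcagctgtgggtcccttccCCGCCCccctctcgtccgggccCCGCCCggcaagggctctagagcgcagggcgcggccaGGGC
Col15a1 (chr4:47207862-47208011, plus strand): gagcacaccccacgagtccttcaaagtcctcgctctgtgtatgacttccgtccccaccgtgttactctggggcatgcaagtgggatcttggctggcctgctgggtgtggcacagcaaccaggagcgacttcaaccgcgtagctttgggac
Col27a1 (chr4:63215262-63215411, plus strand): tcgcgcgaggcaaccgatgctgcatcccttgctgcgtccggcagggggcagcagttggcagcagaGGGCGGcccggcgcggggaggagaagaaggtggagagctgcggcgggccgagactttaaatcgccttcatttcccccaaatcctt
*Col3a1* held a TATA box and a SMAD-type match, whereas *Col5a3* held a CCAAT box and repeated GC boxes, and *Col15a1* held no match in these 150 bases. Windows of 300 bases, 250 before and 50 after the start, were available for 35 of the 44 genes and for 15 of the 18 tested genes, which had 17 windows. The motifs, searched on both strands and independently of each other, were found in 2 (TATA box), 7 (CCAAT box), 11 (GC box) and 9 (SMAD-type) of these 17 windows. Among all 32851 windows of the same length, 13.6% held a TATA box, 37.4% a CCAAT box, 35.7% a GC box and 49.6% a SMAD-type match. The median GC content was 61.7% in the windows of tested collagen genes and 52.7% in all windows. A match describes letters only and is no evidence of binding.

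All 7 tested fibrillar collagens were called in the main fit. Of these 5 were higher, against 10.9% of all tested genes, and 2 lower, against 11.6%. With library totals, and in limma on log2(FPKM + 1), 5 were higher and 1 lower. Over all 14340 genes, 3525 were higher and 696 lower with library totals, and 3031 and 637 in limma. *Col1a1* (ENSMUSG00000001506, chr11:94936224-94953042, GRCm38, plus strand), the alpha 1 chain of type I collagen, measured 4.76, 3.06, 2.55 and 1.93 FPKM in control livers A468, A472, A473 and A475. In *Usp39*-HKO livers A469, A470, A471 and A474 it measured 5.71, 14.3, 12.0 and 15.7 FPKM. Every *Usp39*-HKO liver exceeded every control, with A469 nearest to control A468 and the other 3 further above. The group means were 3.08 ± 1.21 and 11.9 ± 4.43 FPKM (SD, n = 4 each), and the fitted log2 change was 1.70 (SE 0.30, edgeR adjusted p = 0.00333). *Col1a2* (ENSMUSG00000029661, chr6:4504814-4541544, plus strand) encodes the partner chain of type I collagen. Its level was 3.93, 4.34, 3.49 and 3.26 FPKM in the controls and 5.26, 10.6, 9.50 and 10.8 FPKM in the *Usp39*-HKO livers, in the same order of livers. The log2 fold change was 1.02 (SE 0.18, edgeR adjusted p = 0.00331), with no overlap between groups.

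*Col3a1* (ENSMUSG00000026043, chr1:45311538-45349706, plus strand), the single chain of type III collagen or reticulin, was the most abundant fibrillar collagen. It measured 10.5, 11.6, 7.95 and 7.64 FPKM in control livers A468, A472, A473 and A475 and 13.5, 38.4, 32.3 and 33.7 FPKM in *Usp39*-HKO livers A469, A470, A471 and A474. The groups did not overlap, and the log2 fold change was 1.40 (SE 0.26, edgeR adjusted p = 0.00401).

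Type V collagen, which nucleates type I fibrils and sets their width, split by chain. *Col5a2* (ENSMUSG00000026042, chr1:45374321-45503282, minus strand) measured 1.22, 1.67, 1.26 and 1.16 FPKM in the controls and 1.73, 5.65, 4.04 and 5.85 FPKM in the *Usp39*-HKO livers (A469, A470, A471 and A474). Liver A469 lay only slightly above the highest control in FPKM, and no longer above it once the TMM factors are applied. The log2 fold change was 1.44 (SE 0.29, edgeR adjusted p = 0.00570). *Col5a1* (ENSMUSG00000026837, chr2:27886425-28039514, plus strand) measured 2.32, 3.61, 2.26 and 2.07 FPKM in the controls and 3.35, 4.35, 5.19 and 5.36 FPKM in the *Usp39*-HKO livers. Here the groups overlapped, since control A472 exceeded A469, and the log2 fold change was 0.59 (SE 0.18, edgeR adjusted p = 0.0400). This call was lost when any 1 of A468, A473, A475, A470, A471 and A474 was left out (adjusted p between 0.0587 and 0.117). *Col5a3* (ENSMUSG00000004098, chr9:20770050-20815067, minus strand), the alpha 3 chain, went the other way, with 4.01, 4.53, 3.71 and 3.86 FPKM in the controls and 2.80, 3.31, 2.46 and 3.10 FPKM in the *Usp39*-HKO livers. All 4 *Usp39*-HKO values lay below all controls, and *Col5a3* fell by 0.70 log2 units (SE 0.12, edgeR adjusted p = 0.00284).

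*Col27a1* (ENSMUSG00000045672, chr4:63214004-63334991, plus strand), a fibrillar collagen best known from cartilage, was near the filter. It measured 0.912, 0.674, 0.814 and 0.737 FPKM in the controls and 0.285, 0.670, 0.491 and 0.753 FPKM in the *Usp39*-HKO livers A469, A470, A471 and A474. The groups overlapped at A474, and A469 was the lowest. *Col27a1* fell by 0.76 log2 units (SE 0.24, edgeR adjusted p = 0.0387). The adjusted p lay between 0.0709 and 0.106 when A468, A473, A475 or A471 was left out and at 0.237 in limma on log2(FPKM + 1).

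**Figure D2:**
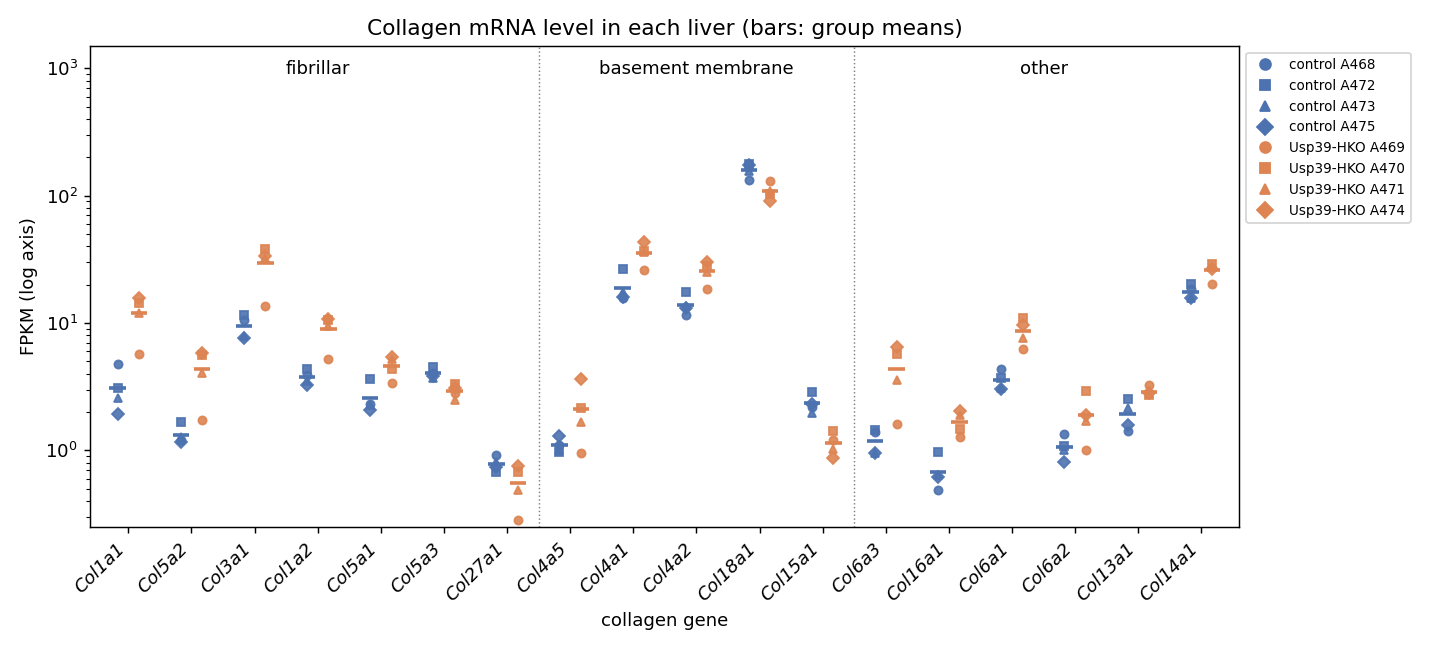
Level of each tested collagen gene in each of the 8 livers (y axis, FPKM on a log axis; x axis, gene), with controls in blue, *Usp39*-HKO livers in orange and bars at the group means. *Col18a1* stands far above the other genes, and *Usp39*-HKO liver A469 (orange circle) is the lowest *Usp39*-HKO liver for all 10 risen genes.

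Of the 5 tested basement membrane collagens, 2 rose, against 10.9% of all tested genes, and 2 fell, against 11.6%. The other 1 did not pass the test. *Col4a1* and *Col4a2* encode the chains of the ubiquitous type IV network and lie head to head on chromosome 8, their annotated starts overlapping. *Col4a1* (ENSMUSG00000031502, chr8:11198423-11312826, minus strand) measured 15.6, 26.4, 17.7 and 15.9 FPKM in controls A468, A472, A473 and A475 and 26.1, 36.7, 36.2 and 43.3 FPKM in *Usp39*-HKO livers A469, A470, A471 and A474. Control A472 was slightly above A469, so the groups overlapped at that point. The log2 fold change was 0.67 (SE 0.18, edgeR adjusted p = 0.0206), with an adjusted p between 0.0554 and 0.0677 when A468, A473, A475 or A474 was left out. *Col4a2* (ENSMUSG00000031503, chr8:11312805-11449287, plus strand) measured 11.5, 17.5, 13.5 and 13.2 FPKM in the controls and 18.6, 27.8, 25.2 and 30.1 FPKM in the *Usp39*-HKO livers. The groups did not overlap in FPKM, but the gap between control A472 and A469 closes once the TMM factors are applied. The log2 fold change was 0.62 (SE 0.15, edgeR adjusted p = 0.0120). *Col4a5*, a chain of specialized basement membranes, measured 0.961 to 1.30 FPKM in the controls and 0.950, 2.15, 1.65 and 3.66 FPKM in the *Usp39*-HKO livers, with A469 below every control. Its log2 fold change was 0.68 (SE 0.30, edgeR adjusted p = 0.125). With 1 liver left out it lay between 0.33 and 0.92 (adjusted p up to 0.387), and only the fit without A469 passed (adjusted p = 0.0126).

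Both endostatin-type collagens were lower. *Col18a1* (ENSMUSG00000001435, chr10:77052178-77166548, minus strand) was the most abundant collagen mRNA in every liver, at 133, 176, 156 and 174 FPKM in controls A468, A472, A473 and A475. It measured 131, 104, 109 and 91.3 FPKM in *Usp39*-HKO livers A469, A470, A471 and A474. All *Usp39*-HKO values lay below all controls, although A469 was close to control A468. *Col18a1* fell by 0.77 log2 units (SE 0.17, edgeR adjusted p = 0.00775). *Col15a1* (ENSMUSG00000028339, chr4:47208161-47313167, plus strand), which in many tissues bridges basement membranes and fibrils, measured 2.18, 2.89, 1.96 and 2.33 FPKM in the controls and 1.22, 1.42, 1.02 and 0.864 FPKM in the *Usp39*-HKO livers. The groups were well apart, and *Col15a1* fell by 1.27 log2 units (SE 0.20, edgeR adjusted p = 0.00177).

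Of the 6 other collagens tested, 3 rose, against 10.9% of all tested genes, and 3 did not pass the test. Type VI collagen forms beaded microfibrils from chains encoded by *Col6a1*, *Col6a2* and *Col6a3*. *Col6a1* (ENSMUSG00000001119, chr10:76708792-76726168, minus strand) measured 4.33, 3.69, 3.08 and 3.05 FPKM in the controls and 6.23, 10.9, 7.59 and 9.71 FPKM in the *Usp39*-HKO livers A469, A470, A471 and A474. Every *Usp39*-HKO liver was above every control, and the log2 fold change was 1.04 (SE 0.17, edgeR adjusted p = 0.00243). *Col6a3* (ENSMUSG00000048126, chr1:90765923-90843971, minus strand) measured 1.38, 1.43, 0.954 and 0.947 FPKM in the controls and 1.62, 5.73, 3.54 and 6.49 FPKM in the *Usp39*-HKO livers. Liver A469 was just above the controls and A474 highest, and the log2 change was 1.62 (SE 0.33, edgeR adjusted p = 0.00609). *Col6a2*, 85162 bases from *Col6a1* on the same strand, measured 0.807 to 1.33 FPKM in the controls and 1.01, 2.90, 1.71 and 1.89 FPKM in the *Usp39*-HKO livers, so that A469 lay within the control range. Its log2 fold change of 0.59 (SE 0.27) had an edgeR adjusted p of 0.141. With 1 liver left out the log2 fold change lay between 0.29 and 0.80 (adjusted p up to 0.391). Only the fit without A469 passed (adjusted p = 0.0256).

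*Col16a1* (ENSMUSG00000040690, chr4:130047840-130099283, plus strand), a collagen associated with fibrils and microfibrils, measured 0.484, 0.971, 0.638 and 0.612 FPKM in the controls and 1.28, 1.48, 1.91 and 2.05 FPKM in the *Usp39*-HKO livers. The groups did not overlap, and the log2 fold change was 1.06 (SE 0.22, edgeR adjusted p = 0.00707). *Col14a1*, a fibril-associated collagen, was the most abundant member of this group at 18.6, 20.4, 15.7 and 15.6 FPKM in the controls and 20.3, 29.1, 27.5 and 26.6 FPKM in the *Usp39*-HKO livers. Liver A469 lay within the control range and the other 3 above it. The log2 fold change was 0.32 (SE 0.13) with an edgeR adjusted p of 0.104, against 0.0115 with library totals and 0.0215 in limma on log2(FPKM + 1). With 1 liver left out the adjusted p reached 0.256, and only the fit without A469 passed (0.0375). *Col13a1*, a transmembrane collagen, measured 1.42 to 2.52 FPKM in the controls and 2.70 to 3.25 FPKM in the *Usp39*-HKO livers. The groups did not overlap in FPKM, but they do once the TMM factors are applied. Its log2 fold change was 0.36 (SE 0.19) with an edgeR adjusted p of 0.206, against 0.0348 with library totals.

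The size of the rise differed between livers of the same genotype. *Usp39*-HKO liver A469 was the lowest of its group for all 10 risen genes, at 1.30 to 1.89 times the control mean FPKM (median 1.39). The corresponding ranges were 1.70 to 4.86 in A470, 1.81 to 3.90 in A471 and 2.09 to 5.50 in A474. The 4 fallen genes did not share an order of livers. A469 stood at 0.363 to 0.820 of the control mean, nearest to the controls for *Col18a1* and lowest for *Col27a1*. Among the controls, A472 was the highest for 8 of the 10 risen genes and A468 for the other 2. The summed FPKM of 10 stellate cell markers was 154 in A469 and 191 to 258 in the other *Usp39*-HKO livers, and that of 6 cholangiocyte markers was 5.67 in A469 and 12.9 to 26.3 in the others. Leaving out A469 raised the number of called collagens to 17, 13 higher and 4 lower. In that fit 1847 of all 14340 genes were higher and 1663 lower, against 1561 and 1664 with all livers.

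**Figure D3:**
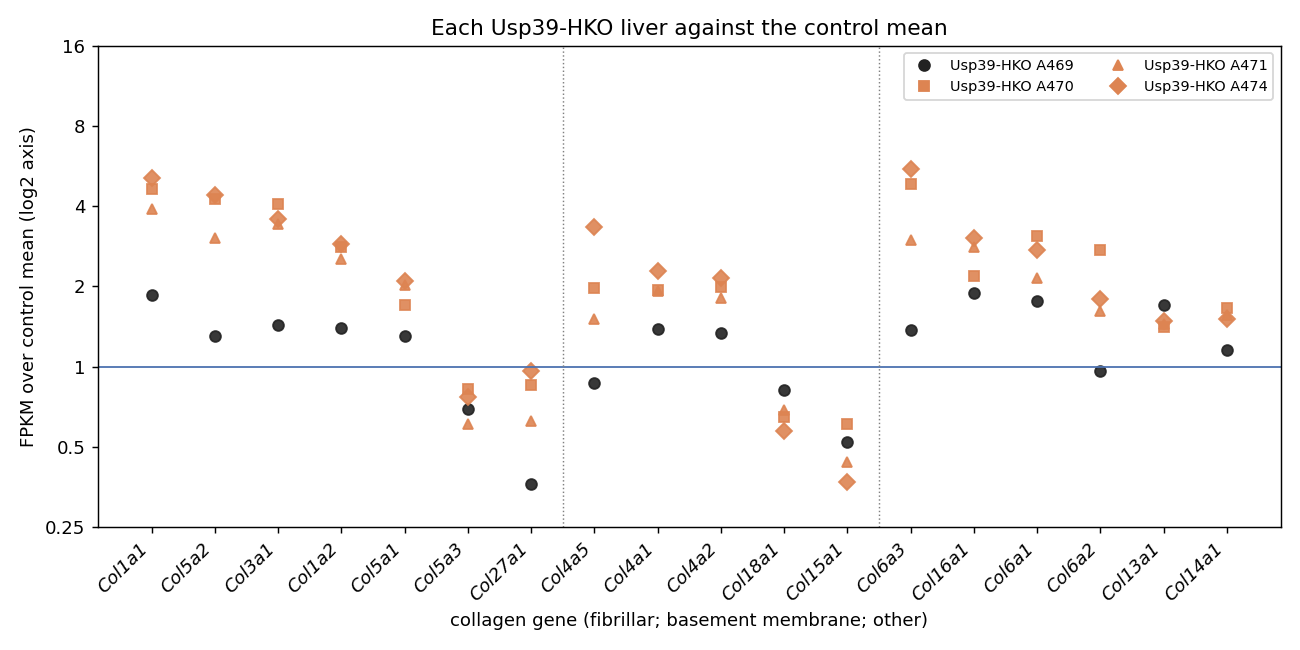
FPKM of each tested collagen gene in each *Usp39*-HKO liver divided by the control mean (y axis, log2 axis; x axis, gene), with the blue line at the control mean and liver A469 in black. Liver A469 lies between 1.30 and 1.89 for the 10 risen genes, and the other 3 livers reach 5.50.

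The total level of collagen mRNA was described by the summed FPKM of all 44 genes. It was 249 ± 27.8 FPKM in the controls and 284 ± 26.4 FPKM in the *Usp39*-HKO livers (SD, n = 4 each). The ranges overlapped, at 220 to 286 and 246 to 305 FPKM. These sums carry no TMM scaling, with factors of 0.911 to 0.940 in the controls and 1.01 to 1.19 in the *Usp39*-HKO livers. The higher FPKM total is therefore not read as a rise, and ratios of sums read higher than with TMM. Shares within a liver do not depend on this scaling. The composition of the pool differed more than its size. *Col18a1* contributed 64.2% ± 3.99 of the summed FPKM in the controls and 39.0% ± 9.95 in the *Usp39*-HKO livers (SD, n = 4 each), or 60.3% to 69.2% against 30.6% to 53.1%. Fibrillar collagens contributed 8.31% to 12.7% in the controls, 13.4% in A469 and 23.2% to 25.5% in the other *Usp39*-HKO livers. Without *Col18a1*, the sum was 89.1 ± 14.1 FPKM in the controls and 175 ± 42.0 FPKM in the *Usp39*-HKO livers, a ratio of 1.97. Fibrillar collagens summed to 25.3 ± 4.33 and 63.4 ± 20.8 FPKM, a ratio of 2.51. These sums describe genes chosen with their changes known and were given no test.

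**Figure D4:**
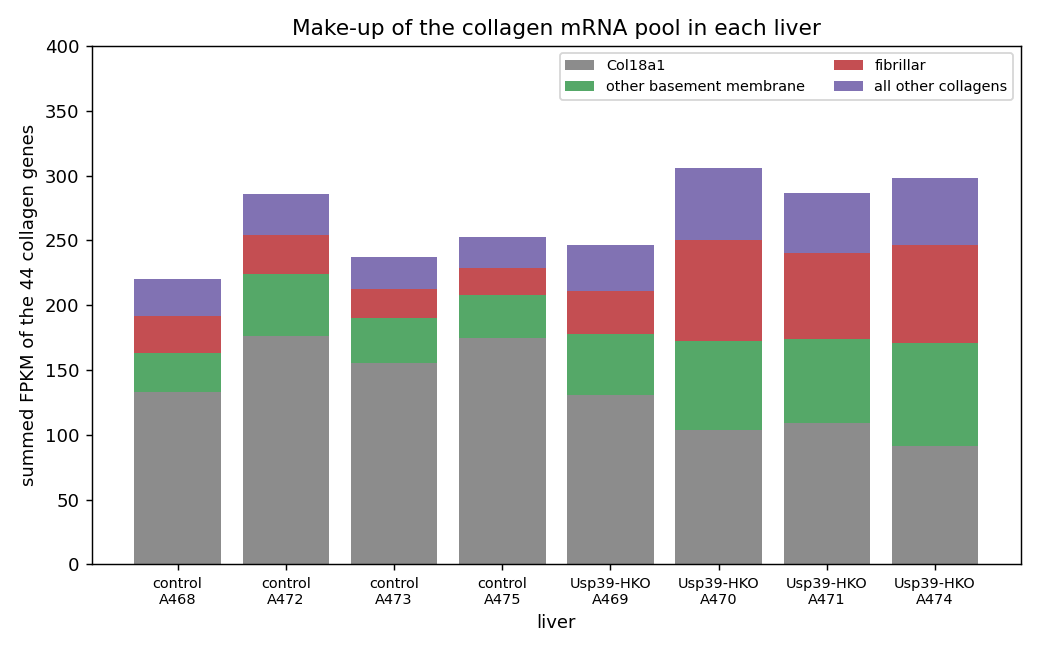
Summed FPKM of the 44 collagen genes in each liver (y axis), stacked by *Col18a1*, the other basement membrane collagens, the fibrillar collagens and all other collagens. The total lies between 220 and 305 FPKM in all 8 livers, while the share of *Col18a1* spans 60.3% to 69.2% of control pools and 30.6% to 53.1% of *Usp39*-HKO pools.

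Ratios between chains were compared because type I, IV, V and VI collagens are built from more than 1 chain. In the FPKM ratio of *Col1a2* to *Col1a1*, the controls averaged 1.32 ± 0.362, and the *Usp39*-HKO livers 0.785 ± 0.0995 (SD, n = 4 each). Control A468 at 0.825 lay within the *Usp39*-HKO range of 0.690 to 0.921, the other 3 controls at 1.37 to 1.69 above it. The log2 ratio differed by −0.72, with a two-sided exact permutation p of 0.0571, or 0.171 after adjustment over the 6 ratios. The ratio of *Col6a2* to *Col6a1* was 0.298 ± 0.0261 and 0.212 ± 0.0438, a log2 difference of −0.51 with the same exact permutation p of 0.0571 (adjusted 0.171). The ratio of *Col5a2* to *Col5a1* was 0.527 ± 0.0451 in the controls and 0.515, 1.30, 0.779 and 1.09 in *Usp39*-HKO livers A469, A470, A471 and A474, with A469 within the control range (log2 difference 0.72, exact permutation p = 0.114, adjusted 0.206). *Col6a3* to *Col6a1* differed by 0.46 (exact permutation p = 0.171, adjusted 0.206) and *Col3a1* to *Col1a1* by −0.37 (exact permutation p = 0.143, adjusted 0.206). The ratio of *Col4a2* to *Col4a1* was 0.749 ± 0.0681 and 0.716 ± 0.0295, and differed by −0.061 on the log2 scale (exact permutation p = 0.457, adjusted 0.457). None of the 6 ratios passed an adjusted p of 0.05, where 4 livers against 4 allow an unadjusted two-sided p no smaller than 0.0286. After adjustment over 6 ratios, 1 ratio alone at that smallest p could not pass 0.05. The ratios are therefore not read as unchanged.

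The other 26 collagen genes did not reach the filter, 4 fibrillar, 3 basement membrane and 19 other, and the highest value among them in any liver was 0.676 FPKM. They include the cartilage collagens *Col2a1*, *Col9a1* and *Col11a1*, the anchoring fibril collagen *Col7a1* and the hypertrophic cartilage collagen *Col10a1*. In 10 of the 26 no liver exceeded 3 counts, and *Col26a1* had 0 counts in every liver. A fit without the filter held 43 of the 44 genes, all but *Col26a1*, with 12 higher and 5 lower. Of the 26 genes under the filter, *Col26a1* aside, 2 were higher there and 1 lower. Of all 28412 genes tested there, 6.41% were higher and 6.75% lower. These 3 genes were picked after their values were seen. *Col4a4*, a chain of specialized basement membranes, had 12, 10, 17 and 16 counts in controls A468, A472, A473 and A475 and 25, 63, 20 and 68 counts in *Usp39*-HKO livers A469, A470, A471 and A474. All 4 *Usp39*-HKO livers were above the controls, and the log2 change was 1.34 (SE 0.35, edgeR adjusted p = 0.00785). Its divergent neighbor *Col4a3*, whose start lies 72 bases away, reached 56 counts in A474, with a log2 fold change of 1.13 (edgeR adjusted p = 0.0620). *Col6a5* had 2 to 9 counts in the controls and 5, 19, 16 and 29 in the *Usp39*-HKO livers (log2 fold change 1.59, edgeR adjusted p = 0.0295). *Col20a1* had 9, 17, 25 and 24 counts in the controls and 15, 8, 6 and 10 in the *Usp39*-HKO livers, which overlapped (log2 fold change −1.22, edgeR adjusted p = 0.0365).

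Of 22 genes that fold and modify collagen inside the cell 18 were tested, and 6 rose, against 10.9% of all tested genes, and 3 fell, against 11.6%, with a median log2 fold change of −0.13 over the 18 against −0.0015 over all tested genes. *Fkbp10*, a collagen chaperone of the endoplasmic reticulum, measured 0.631, 0.653, 0.635 and 1.18 FPKM in the controls and 1.19, 2.11, 2.18 and 3.09 FPKM in the *Usp39*-HKO livers (log2 fold change 1.20, SE 0.29, edgeR adjusted p = 0.0138). Control A475 reached nearly the level of A469. *Creb3l1*, a transcription factor known to act on collagen genes, changed by 1.01 log2 units (SE 0.28, edgeR adjusted p = 0.0247), and *P3h4*, a partner of the collagen hydroxylases, by 0.94 (SE 0.30, edgeR adjusted p = 0.0430). The other risen genes were *Serpinh1*, the collagen chaperone HSP47, and the prolyl 3-hydroxylases *P3h2* and *P3h3*. The fallen genes were *Mia3* and *Mia2*, which serve the export of large cargo such as procollagen from the endoplasmic reticulum, and the galactosyltransferase *Colgalt1*. *P4hb*, the most abundant of the list and the beta subunit of prolyl 4-hydroxylase, measured 417 ± 19.9 and 444 ± 36.8 FPKM (SD, n = 4 each), with a log2 fold change of −0.14 (edgeR adjusted p = 0.475) that turned to 0.094 with library totals and 0.089 in limma on log2(FPKM + 1). With library totals 8 of the list were higher and 2 lower, against 3525 and 696 of all 14340 genes. The number of calls fell from 9 to 4 when A468, A475 or A474 was left out and to 5 without A473. In these 4 fits 982 to 1124 of all genes were higher and 949 to 1135 lower, against 1561 and 1664 with all livers. *Creb3l1* then had an adjusted p of 0.0511 to 0.0760 without A468, A473, A475, A471 or A474, and *P3h4* of 0.0620 to 0.110 without any 1 of these or A469.

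Outside the cell, 11 of 14 genes that cut, cross-link or bind procollagen were tested, and 7 rose, against 10.9% of all tested genes, and 1 fell, against 11.6%, with a median log2 fold change of 0.79. *Loxl1* and *Lox* encode lysyl oxidases, which cross-link collagen and elastin. *Loxl1* measured 0.958, 1.44, 0.953 and 0.903 FPKM in the controls and 1.59, 4.76, 4.58 and 6.14 FPKM in the *Usp39*-HKO livers A469, A470, A471 and A474 (log2 fold change 1.74, SE 0.33, edgeR adjusted p = 0.00436). *Lox* measured 0.402 to 0.935 FPKM in the controls, 2 of which reached 0.5 FPKM, and 1.44 to 3.55 FPKM in the *Usp39*-HKO livers (log2 fold change 1.67, edgeR adjusted p = 0.00419). Both were without overlap between groups. *Pcolce*, which enhances cleavage of the procollagen C-propeptide, changed by 0.98 log2 units (SE 0.24, edgeR adjusted p = 0.0134). *Bmp1*, the protease that performs this cleavage, was the fallen gene, at 21.3 to 29.2 FPKM in the controls and 14.8 to 16.8 FPKM in the *Usp39*-HKO livers, and the log2 change was −0.87 (SE 0.12, edgeR adjusted p = 0.00119). *Sparc*, an extracellular collagen-binding protein and the most abundant of the list, measured 60.4 ± 3.81 and 97.6 ± 17.1 FPKM (SD, n = 4 each), and the log2 change was 0.45 (SE 0.12, edgeR adjusted p = 0.0178). Its adjusted p was 0.0538 to 0.0598 without A468, A473 or A475.

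Among receptors, 7 of 10 genes were tested and 3 rose, against 10.9% of all tested genes. Without A469 the count was 4 higher and 1 lower, against 1847 and 1663 of all 14340 genes. *Ddr1*, a receptor tyrosine kinase for collagen, measured 0.639, 1.10, 0.658 and 0.684 FPKM in the controls and 2.37, 3.95, 5.05 and 7.20 FPKM in the *Usp39*-HKO livers A469, A470, A471 and A474. The groups lay well apart, and the log2 change was 2.32 (SE 0.29, edgeR adjusted p = 0.000795). *Lair1*, an inhibitory collagen receptor of leukocytes, changed by 0.89 log2 units (SE 0.17, edgeR adjusted p = 0.00396). *Mrc2*, an endocytic receptor that clears collagen fragments, measured 0.343, 0.378, 0.262 and 0.273 FPKM in the controls and 0.725, 1.60, 1.67 and 3.04 FPKM in the *Usp39*-HKO livers. No control reached the filter of 0.5 FPKM, so *Mrc2* was tested only through the group where it is high, and its call is no support for a rise of the list. *Itgb1*, the integrin beta 1 subunit and the most abundant of the list, measured 69.1 ± 1.75 and 85.0 ± 13.8 FPKM (SD, n = 4 each) with a log2 fold change of 0.058 (edgeR adjusted p = 0.757). The median over the 7 genes was 0.33.

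**Figure D5:**
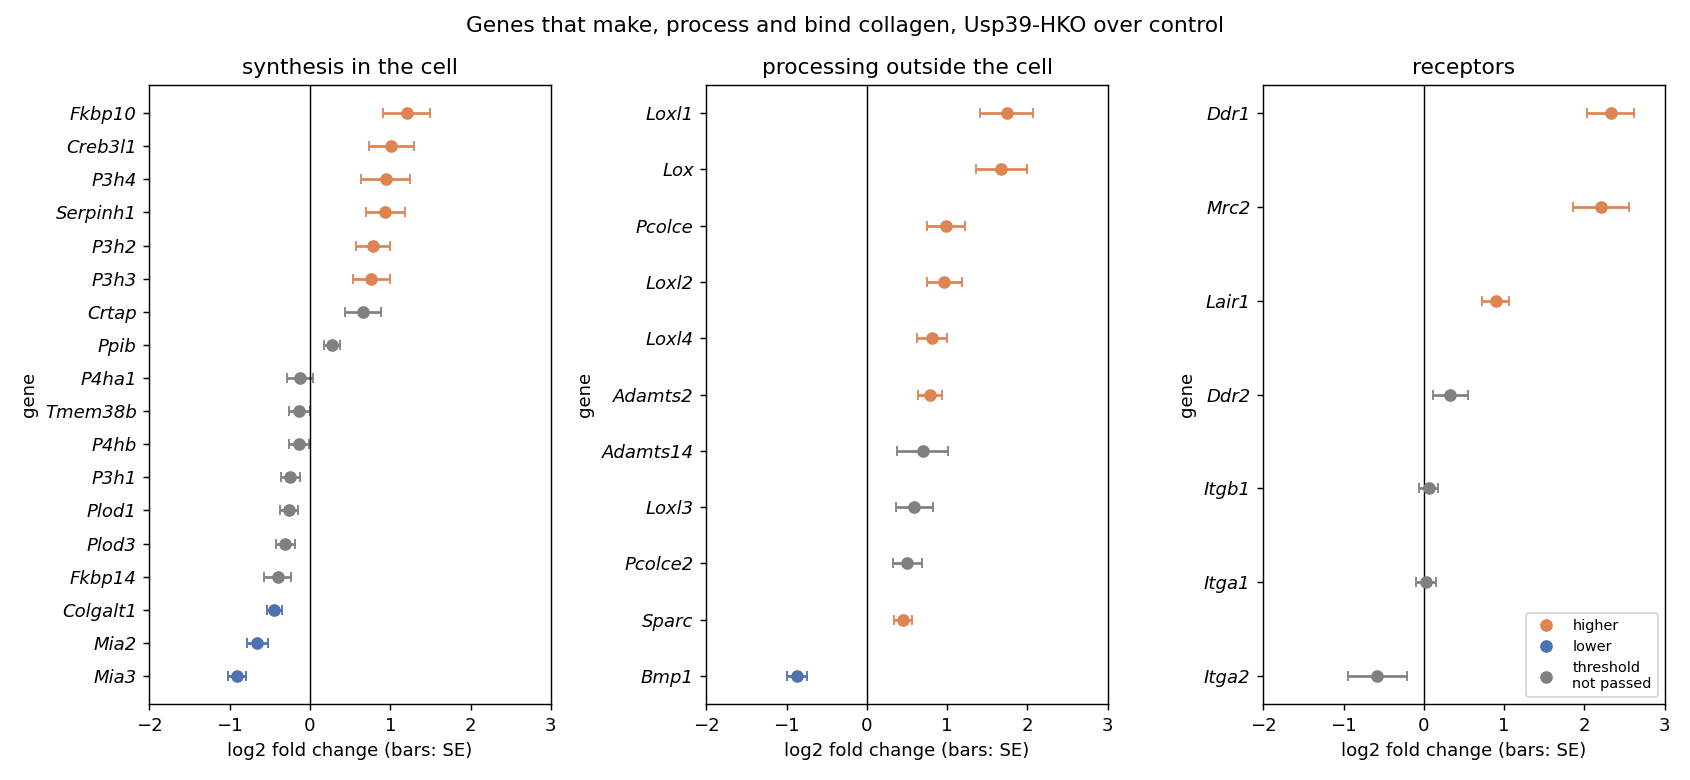
Log2 fold changes (x axis, TMM-scaled counts, bars for standard errors) of the tested genes for collagen synthesis in the cell, processing outside the cell and receptors (y axis, gene). The calls are 6 higher and 3 lower of 18, 7 higher and 1 lower of 11, and 3 higher of 7, *Mrc2* among them with all controls under the filter.

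In whole liver RNA, more cells of a type and more RNA per cell cannot be told apart. Marker calls are set against 10.9% of all tested genes called higher and 11.6% called lower. Of 10 stellate cell markers, all tested, 7 rose, and their summed level was 108 to 113 FPKM in the controls and 154 to 258 FPKM in the *Usp39*-HKO livers. Of 8 portal fibroblast markers 7 were tested and 5 were called higher, 1 of them (*Fbln1*) tested only through the *Usp39*-HKO livers, since no control reached 0.5 FPKM, with sums of 7.51 to 11.3 and 15.4 to 31.2 FPKM. *Acta2*, a marker of myofibroblasts and smooth muscle, had a log2 value of 0.92 for its change (SE 0.45), which did not pass the test (edgeR adjusted p = 0.167). Cholangiocyte markers, of which 4 of 6 were tested, all 4 called higher although *Cldn7* reached 0.5 FPKM in only 1 control, summed to 3.50 to 4.37 FPKM and 5.67 to 26.3 FPKM. Macrophage markers, 5 of 7 higher, summed to 282 to 340 FPKM and 476 to 719 FPKM. The 8 sinusoidal endothelial markers had overlapping sums of 129 to 146 and 132 to 140 FPKM, and their calls changed with the scaling. Under TMM 2 were lower. With library totals and in limma on log2(FPKM + 1), 2 were higher (*Pecam1* and *Cdh5*) and 1 lower (*Lyve1*). In those settings 3525 and 3031 of all 14340 genes were higher and 696 and 637 lower. Of 8 hepatocyte markers, all tested, 1 was called lower under TMM but not with library totals or in limma, and the sums overlapped at 16110 to 17890 and 14530 to 19870 FPKM. The 5 smooth muscle and myofibroblast markers, of which 1 (*Acta2*) was tested, summed to 1.40 to 3.58 FPKM and 1.77 to 5.20 FPKM, and the 5 mesothelial markers to 2.96 to 7.04 and 4.78 to 16.7 FPKM. Of the mesothelial markers 3 were tested and 0 called. *Msln* and *Upk3b* had log2 fold changes of −0.27 and −0.43. *Krt23* had 1.26 (edgeR adjusted p = 0.0864), with means of 3.37 FPKM in the controls and 9.69 FPKM in the *Usp39*-HKO livers. None of the markers in these lists was at 0 in all livers. The part of these cell types in the changes of collagen mRNA was not tested.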

How the data were processed

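Liver RNA-seq (NEBNext Ultra libraries, paired-end reads) of 8 mice was analysed. The authors trimmed reads with Trim Galore (0.6.1), aligned them to mm10 (HISAT2) and obtained gene counts from featureCounts. The annotation release, strand setting and treatment of multi-mapping reads are not given in the sources used here. The deposited table holds raw counts, FPKM (counts per kilobase of the deposited exon length, scaled to the total count of the liver) and gene lengths. The authors' comparison columns (mean normalized signal, log2 fold change, standard error and test score, p-values) were not used. FPKM recomputed from counts and lengths differed by a relative 1.28e-07 at most, and 314 repeated rows were dropped.

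Groups were taken from the genotype labels and compared with edgeR 4.0.16 (quasi-likelihood test, TMM) in R 4.3.3, with Benjamini-Hochberg adjustment over the 14340 genes at FPKM of at least 0.5 in at least 4 livers. The test was checked on simulated counts. Values are mean ± SD. Each liver is 1 mouse. Collagen genes were all named if tested, with values per liver for those past an adjusted p of 0.05 or at a mean of at least 5 FPKM. For the synthesis, processing and receptor lists, the 3 largest called changes and the most abundant gene were given. Genes and lists were chosen with earlier results of these data known. Coordinates are from GENCODE M21 on GRCm38. No tested collagen shared 150 bases at 97% identity with transcripts of another gene. Exons of tested collagens overlapped other genes over at most 2.5% of their bases on the opposite strand and 1.44% on the same strand, and reads there cannot be told apart. Alternatives were RLE factors, library totals, DESeq2 1.42.0, other filters, limma 3.58.1 on log2(FPKM + 1) and log2(FPKM + 0.1), the study's cutoff (unadjusted p under 0.05 and a log2 change over 0.5) and leaving out each liver.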

Additional observations from a re-analysis of the deposited data

Results flagged for a closer look

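In 52 sets of 4 livers (18 genes, 6 chain ratios and 2 sums in each genotype), the gap of the highest or lowest liver to its nearest neighbor was compared with the range of its group, and 2 exceeded Dixon's critical value for 4 samples. Chance alone exceeds it in about 1 of 20 sets. Both concern control liver A472. *Col5a1* measured 3.61 FPKM there and 2.07 to 2.32 FPKM in the other 3 controls. The FPKM ratio of *Col6a3* to *Col6a1* was 0.389 there and 0.309 to 0.320 in the other 3 controls.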

How the results depend on the processing

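No direction of the 18 tested collagen genes turned under any alternative, and in 266 of 296 gene and setting pairs the gene stayed on its side of the threshold. It was lost in 17 and gained in 13. Of the collagen genes 14 were called in the main fit (7 fibrillar, 4 basement membrane, 3 other), against 22.5% of all tested genes. A mean of at least 5 FPKM left 8 to test, with 7 called, 3 fibrillar and 1 other, since fewer genes were tested. That filter also left 5 calls among 11 synthesis genes, 2 among 2 processing genes and 0 for 1 receptor gene. Of all 6672 genes tested with it, 750 were higher and 845 lower. Other collagens had 6 calls with library totals, 5 without a filter and 5 in limma with either pseudocount. Over all 14340 genes, 3525 were higher with library totals and 3031 and 3061 in limma, against 1561 in the main fit. Without a filter, 1822 of 28412 genes were higher and 1919 lower.

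With 1 liver left out, calls ranged from 11 to 17 for all collagens, 5 to 7 fibrillar, 3 to 5 basement membrane, 3 to 5 other, 4 to 10 synthesis, 7 to 10 processing and 3 to 5 receptor genes. Calls over all 14340 genes ranged as well, from 982 to 1847 higher and from 949 to 1666 lower. The log2 fold change of *Usp39* ranged from −0.45 to −0.35. It was −0.18 with library totals, −0.16 and −0.18 in limma with a pseudocount of 1 and 0.1, all without a call, and at −0.41 it did not meet the study's cutoff. *P4hb* turned from −0.14 to 0.094 with library totals and to 0.089 and 0.090 in limma. The ratio of summed collagen FPKM without *Col18a1* lay between 1.85 and 2.19. The cause of these changes was not tested. Labels share no replicate numbers, so no paired analysis was possible because nothing pairs the mice. Depth most clearly limits the 10 of the 26 untested genes with at most 3 counts in every liver. Others had more counts but did not reach the FPKM filter, such as *Col12a1* with 42 to 91 counts per liver.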
